A study of Homo sapiens with 8 samples.

Results

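The genes described here encode 8 histone acetyltransferases (*EP300*, *CREBBP*, *KAT2A*, *KAT2B*, *KAT5*, *KAT6A*, *KAT7* and *KAT8*) and *BRD2*, the only BET bromodomain reader among them. They are 9 of 20052 protein-coding genes, were listed by name, and are described by the H3K27ac peaks in each gene and 20 kb either side of it. H3K27ac is acetylation of lysine 27 of histone H3, a mark of active promoters and enhancers, and it was measured by ChIP-sequencing in derivatives of MIA PaCa-2, a cell line from a human pancreatic carcinoma. Both lines were made from MIA PaCa-2 cells that carried the lentiMPHv2 plasmid of a CRISPR activation system, and lentiSAMv2 then brought in a guide RNA. The guide was directed to *HDAC1*, to overexpress it (OE), in MP2_HDAC1_OE and was a non-targeting control (NTC) in MP2_NTC. The control line thus carried the activation machinery too. The authors report higher *HDAC1* expression in MP2_HDAC1_OE than in MP2_NTC. Whether the lines are clones is not given in the sources used here. Each line had 2 H3K27ac samples and 2 control samples, and 1 list of peaks per line pools its samples, so every value below stands alone, without replicates, and no difference between the lines could be tested.

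Acetyltransferases move an acetyl group from acetyl-CoA onto lysines of histone tails, and deacetylases such as HDAC1 take it off. EP300 and CREBBP are the main writers of H3K27ac, KAT2A and KAT2B are the alternative catalytic subunits of the SAGA and ATAC coactivators and are best known for acetylating other lysines of histone H3, and the MYST enzymes KAT5, KAT6A, KAT7 and KAT8 work in complexes of their own on histones H4, H2A and H3. BET proteins such as BRD2 bind acetylated lysines through paired bromodomains and recruit the transcription machinery.

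H3K27ac was found at all 9 genes, and at the start of 8 of them in both lines. *KAT2B* was the exception, with a weak peak at its start in MP2_HDAC1_OE and none there in MP2_NTC. *EP300*, *KAT7* and *KAT8* ranked higher at their starts in MP2_NTC, and *CREBBP*, *KAT2A*, *KAT5*, *KAT6A* and *BRD2* ranked higher in MP2_HDAC1_OE, although the order at *BRD2* turned when 5 kb in place of 2 kb were searched. The DNA at a gene start is printed for the 5 members on which these statements turn, as 250 bases before and 50 bases after the RefSeq start (GRCh38.p14, 5′ to 3′ on the gene's strand). Capitals mark GC boxes (GGGCGG, read on both strands, where copies may overlap) and ETS cores (CCGGAAG, also on both strands).

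*EP300* promoter, chr22:41092342-41092641, plus strand: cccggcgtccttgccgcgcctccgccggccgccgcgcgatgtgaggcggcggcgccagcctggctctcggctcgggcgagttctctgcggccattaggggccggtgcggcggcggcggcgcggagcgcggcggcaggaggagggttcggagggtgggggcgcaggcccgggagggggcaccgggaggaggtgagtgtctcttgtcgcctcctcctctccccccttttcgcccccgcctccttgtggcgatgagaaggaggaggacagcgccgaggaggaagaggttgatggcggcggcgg
*KAT2B* promoter, chr3:20040196-20040495, plus strand: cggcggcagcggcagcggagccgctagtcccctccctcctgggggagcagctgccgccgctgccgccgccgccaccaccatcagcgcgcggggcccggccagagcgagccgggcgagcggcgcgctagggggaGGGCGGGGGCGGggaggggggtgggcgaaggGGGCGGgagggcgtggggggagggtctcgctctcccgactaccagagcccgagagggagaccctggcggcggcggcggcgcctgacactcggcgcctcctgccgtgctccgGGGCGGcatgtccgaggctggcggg
*KAT5* promoter, chr11:65712002-65712301, plus strand: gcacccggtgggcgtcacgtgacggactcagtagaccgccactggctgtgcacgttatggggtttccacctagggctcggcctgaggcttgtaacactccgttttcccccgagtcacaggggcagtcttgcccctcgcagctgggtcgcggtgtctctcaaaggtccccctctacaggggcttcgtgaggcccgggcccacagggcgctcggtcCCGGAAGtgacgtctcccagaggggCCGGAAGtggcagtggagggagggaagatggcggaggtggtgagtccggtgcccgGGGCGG
*KAT7* promoter, chr17:49788431-49788730, plus strand: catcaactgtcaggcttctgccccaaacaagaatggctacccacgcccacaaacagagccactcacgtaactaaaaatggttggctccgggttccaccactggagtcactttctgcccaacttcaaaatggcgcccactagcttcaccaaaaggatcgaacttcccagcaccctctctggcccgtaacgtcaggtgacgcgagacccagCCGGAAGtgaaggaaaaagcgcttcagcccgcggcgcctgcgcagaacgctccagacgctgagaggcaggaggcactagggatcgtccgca
*BRD2* promoter, chr6:32968344-32968643, plus strand: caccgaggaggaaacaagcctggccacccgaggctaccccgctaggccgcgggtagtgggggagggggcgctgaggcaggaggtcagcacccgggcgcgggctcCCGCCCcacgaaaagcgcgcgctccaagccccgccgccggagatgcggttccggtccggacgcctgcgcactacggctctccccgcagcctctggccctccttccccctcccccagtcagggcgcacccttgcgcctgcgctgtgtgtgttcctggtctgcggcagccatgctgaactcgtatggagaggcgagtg

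Promoter sequences of 300 bases were found for 7 of the 9 members, with no entry for *KAT6A* and *KAT8*. The *KAT2B* promoter held 4 GC boxes, 40 CpG and 80.3% G and C, and 235 of its 300 bases lay in the MP2_HDAC1_OE peak and 0 in an MP2_NTC peak. The *EP300* promoter also held 40 CpG but no copy of any motif searched, and 12 of its bases lay in an MP2_HDAC1_OE peak and 117 in an MP2_NTC peak. By comparison, the median of 35116 promoters was 14 CpG and 58.7% G and C.

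The *KAT5* and *KAT7* promoters lay whole within peaks of both lines. *KAT5* held 2 ETS cores, which begin at -36 and -11 from its start, and *KAT7* held 1 at -41. ETS cores were found in 10.3% of all promoters and GC boxes in 45.0%. *BRD2* had 1 GC box on the minus strand at -146, with 191 bases in the MP2_HDAC1_OE peak and 141 in the MP2_NTC peak. The *CREBBP* promoter, with 3 GC boxes, lay whole in an MP2_NTC peak and had 0 bases in an MP2_HDAC1_OE peak, while *KAT2A* had 45 bases in an MP2_NTC peak, 0 in an MP2_HDAC1_OE peak and none of the motifs. The bases in a peak depend on its listed width. A width of exactly 820 bp, the median of both lists, recurs among the members' peaks, also at *CREBBP* in MP2_NTC and at *KAT2B*. The cAMP response element (TGACGTCA, in 1.85% of all promoters), the CCAAT box (34.6%) and the TATA box (TATAAA, 11.5%) had no match in the 7 promoters.

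The MP2_HDAC1_OE list holds 25045 peaks and the MP2_NTC list 22569, and the number of reads behind them is unknown. Peaks that shared at least 1 bp were merged into 18678 regions, of which 50.7% were shared by the lines. A signal, the authors' strength of a peak, was read only against its own list, as a rank from 1 for the strongest and as a percentile, the share of the list with a lower signal. The score of a peak, at most 1000, follows its reproducibility between samples. At *HDAC1* itself, the strongest peak at the start was at percentile 93.9 in MP2_HDAC1_OE and 45.2 in MP2_NTC. Among markers of the labelled pancreatic carcinoma epithelium, 2 of 6, *KRT18* and *KRT19*, had a start peak in both lines. The share over all protein-coding genes was 36.4%. *KRT8* had a start peak in MP2_HDAC1_OE alone, at percentile 50.5, and *KRT7*, *EPCAM* and *CDH1* had none. Both mesenchymal markers, *VIM* and *ZEB1*, had a start peak in both lines, but they were listed because they are known for MIA PaCa-2. No start peak was found at the 4 acinar and endocrine, 3 leukocyte, 2 fibroblast and 1 erythroid genes, and 1 of 2 endothelial genes, *CDH5*, had one.

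The windows of the 9 genes held 26 merged regions. Of these, 16 (61.5%, 95% Wilson interval 42.5% to 77.6%, which covers counting error only) were shared and were found at 8 genes, all but *KAT2B*. MP2_HDAC1_OE alone had 6 regions (23.1%, 11.03% to 42.1%) at *KAT2A*, *KAT2B*, *KAT5*, *KAT8* and *BRD2*. MP2_NTC alone had 4 (15.4%, 6.15% to 33.5%) at *EP300*, *KAT2B* and *KAT8*. Over the windows of all protein-coding genes, 26.5% of 16200 regions were unique to MP2_HDAC1_OE and 20.6% were unique to MP2_NTC, both inside the intervals of the members. The intervals treat the 26 regions as independent, although they come from 9 genes and some adjoin each other, so this is no test.

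Counted by gene, all 9 members had a region against a background of 63.1% of protein-coding genes. Regions of MP2_HDAC1_OE alone were present at 5 of 9 (26.3% of all genes) and regions of MP2_NTC alone at 3 of 9 (23.4%). These shares include genes without any region. Of the 12653 genes with a region, 5282 had one of MP2_HDAC1_OE alone and 4690 one of MP2_NTC alone. The median protein-coding gene had 1 region, and the median gene with any region had 2. Among the members, *KAT8* and *BRD2* had 6 each, *EP300* and *KAT2A* 3, *CREBBP*, *KAT2B* and *KAT5* 2, and *KAT6A* and *KAT7* 1. The nearest gene end was the member's own for 18 of the 26 regions and a neighbor's for the other 8.

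**Figure D1:**
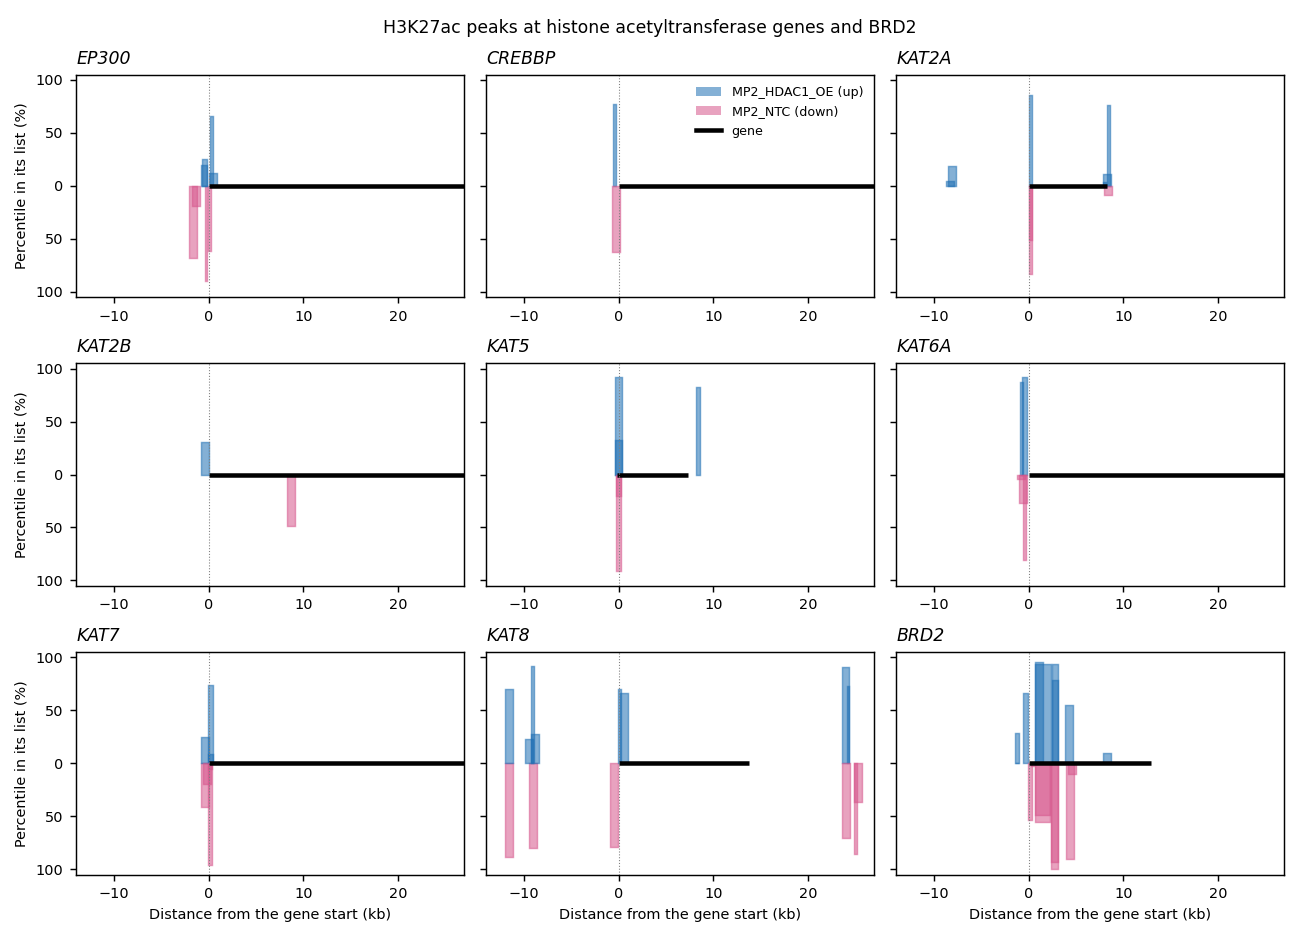
H3K27ac peaks of the 9 genes, with the distance from the gene start in kb on the x axis and the percentile of each peak within its list on the y axis, MP2_HDAC1_OE upward in blue and MP2_NTC downward in pink; the black line is the gene. *KAT6A* is drawn from its higher-coordinate end and *KAT8* from its lower one, since their strand was not in the table used, and the *CREBBP* region 162274 bp from its start is outside the panel. Peaks of both lines lie within 2 kb of the start or drawn end at 8 of 9 genes, and at *KAT2B* the only MP2_NTC peak begins 8301 bp inside the gene. *KAT8*, *KAT2A* and *KAT5* also have peaks farther away, beyond or at the other end of the gene or near its neighbors.

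The members' windows held 39 MP2_HDAC1_OE peaks, 0.156% of that list, and 35 MP2_NTC peaks, 0.155%. The MP2_HDAC1_OE peaks had signals from 11.8 to 99.1, a median percentile of 66.2 and a range of percentiles from 0.771 to 95.9. The MP2_NTC peaks had signals from 14.7 to 178, a median percentile of 55.1 and a range from 2.98 to 99.9. The strongest and the weakest MP2_HDAC1_OE peaks were both at *BRD2*, and so were those of MP2_NTC. The top score of 1000 was held by 16 MP2_HDAC1_OE peaks (41.0%; 33.8% of the list) and 17 MP2_NTC peaks (48.6%; 40.4% of the list), and the lowest scores were 542 and 570.

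Within 2 kb of the gene start, 8 of 9 members had a peak in both lines, against 36.4% of protein-coding genes. MP2_HDAC1_OE alone had one at *KAT2B* (1 of 9, against 6.27%), and MP2_NTC alone at 0 of 9 (5.24%). For *KAT6A* and *KAT8*, whose strand was not in the table, both ends were searched. Over the 8 members with both, the strongest start peak was at a higher percentile in MP2_HDAC1_OE at 5 and in MP2_NTC at 3, with a median difference of 1.71 percentile points, beside 0.990 for all protein-coding genes with both. Over these 8 members the medians were 81.3 in MP2_HDAC1_OE and 82.1 in MP2_NTC, beside 79.6 and 77.5 for all protein-coding genes with both. With *KAT2B*, which had a start peak in MP2_HDAC1_OE alone, the MP2_HDAC1_OE median of the members was 76.8.

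**Figure D2:**
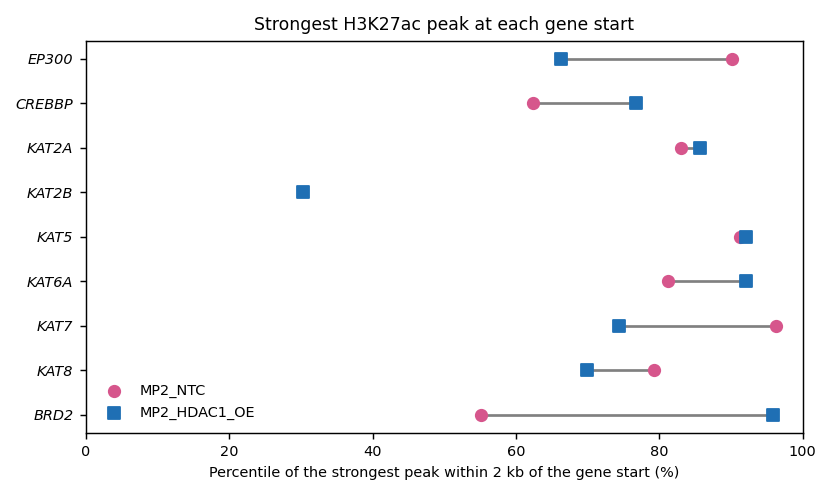
The strongest H3K27ac peak within 2 kb of each gene start, as its percentile within its list on the x axis, for MP2_HDAC1_OE (blue squares) and MP2_NTC (pink circles), 1 pooled value each. *KAT5* lies at 92.1 and 91.3, *BRD2* and *EP300* lie farthest apart, and *KAT2B* has no MP2_NTC peak.

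*EP300* (chr22:41092592-41180077, plus strand) had 3 regions packed around its start, and the lines shared few of the bases. The first, chr22:41090526-41091631, was unique to MP2_NTC and held peaks at percentiles 68.6 and 19.6, and it ended 135 bp before the nearest MP2_HDAC1_OE peak. The second, chr22:41091767-41092379, was shared but ranked very differently. In MP2_NTC it was a narrow peak of 212 bp with a signal of 90.2, rank 2227 and percentile 90.1. In MP2_HDAC1_OE it held 2 peaks with signals of 28.6 and 33.2, at percentiles 20.0 and 24.95. This difference of -65.2 points, MP2_HDAC1_OE minus MP2_NTC, was lower than all but 0.496% of the shared regions of the genome. Neighboring *EP300* regions lay within 500 bp of each other and were counted apart because peaks were merged at 1 bp. Within 2 kb of the start, the strongest peaks were at percentiles 66.3 in MP2_HDAC1_OE and 90.1 in MP2_NTC, a difference of -23.8 points.

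The third *EP300* region, chr22:41092563-41093486, spanned the start itself. There MP2_NTC had 1 peak with its summit at -17 bp from the start, a signal of 56.6 and percentile 61.7. MP2_HDAC1_OE had peaks with summits 285 bp and 485 bp inside the gene, at percentiles 66.3 and 12.5. The strongest start peak of *EP300* thus lay inside the gene in MP2_HDAC1_OE and before it in MP2_NTC, and 11.4% of the bases covered by either line were covered by both, the lowest share among the 8 members with a shared region.

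*CREBBP* (chr16:3725054-3880713, minus strand), the paralog of *EP300*, had 2 regions and both were shared. At its start, chr16:3880613-3881432, MP2_HDAC1_OE had a peak of 352 bp with a signal of 64.5, rank 5804 and percentile 76.8. MP2_NTC had a peak listed at 820 bp, the median width of both lists, with a signal of 57.1, rank 8489 and percentile 62.4. The summits lay at -485 bp and -310 bp from the start. The difference of 14.4 points was exceeded by 26.5% of all shared regions. The other region, chr16:3717017-3718439, was in the neighbor *TRAP1*, with MP2_HDAC1_OE peaks at percentiles 49.7 and 47.1 and MP2_NTC peaks at 28.3, 65.2 and 18.2.

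*KAT2A* (chr17:42113111-42121367, minus strand), which encodes GCN5, had a start region that hardly differed between the lines. In chr17:42120988-42121362, MP2_HDAC1_OE had a signal of 75.1 at rank 3582 and percentile 85.7. MP2_NTC had signals of 77.3 and 50.3 on the same interval, the stronger at rank 3815 and percentile 83.1. The difference was 2.60 points, and all 3 peaks had a score of 1000.

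The region at the other end of *KAT2A* differed most in the direction of MP2_HDAC1_OE. It spans chr17:42112576-42113534 and also touches the neighbor *DHX58*. MP2_HDAC1_OE had 3 peaks there, with signals of 21.4, 64.1 and 14.5 and percentiles 11.5, 76.4 and 3.54. MP2_NTC had 1 peak with a signal of 20.7 at percentile 8.98. The difference of 67.4 points was exceeded by 0.591% of all shared regions, and it rested on the narrow peak of 239 bp with a score of 1000. The last region, chr17:42129071-42130089, was unique to MP2_HDAC1_OE, lay in *RAB5C* and held weak peaks at percentiles 18.5 and 4.25.

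*KAT2B* (chr3:20040446-20154404, plus strand), which encodes PCAF, the paralog of *KAT2A*, was the only member without a shared region. The MP2_HDAC1_OE peak, chr3:20039611-20040430, ended 16 bp before the start and overlapped the GC-rich promoter printed above. It had a signal of 36.8, rank 17454, percentile 30.3 and a score of 553, close to the lowest score of its list, 540. The MP2_NTC peak, chr3:20048747-20049566, lay inside the gene with a signal of 48.3, rank 11690, percentile 48.2 and a score of 775. Both peaks were below the median of their lists and 8316 bp apart, and no base was covered in both lines.

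*KAT5* (chr11:65712018-65719604, plus strand, start at 65712252), which encodes the TIP60 acetyltransferase of the NuA4 complex, differed least at the start between the lines among the 8 members with start peaks in both. In its start region, chr11:65711892-65712555, each line had an interval listed with 2 summits. The stronger summits had signals of 87.0 in MP2_HDAC1_OE and 93.1 in MP2_NTC, at ranks 1969 and 1960 and percentiles 92.1 and 91.3. They lay at -112 bp and -61 bp from the start, and the weaker ones 94 bp and 142 bp inside the gene, at percentiles 32.7 and 20.4. The other *KAT5* region, chr11:65720459-65720786, was unique to MP2_HDAC1_OE with a signal of 71.1 and percentile 82.7. It lay 12 bp from an end of *RNASEH2C*, 855 bp beyond *KAT5*, and was the strongest of the 6 regions unique to MP2_HDAC1_OE.

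*KAT6A* (chr8:41929479-42051987), which encodes the MOZ acetyltransferase, had 1 region, chr8:42052192-42053257, shared and 205 bp outside the gene's higher-coordinate end. MP2_HDAC1_OE had peaks with signals of 86.9 and 78.1 at percentiles 92.1 and 87.6. MP2_NTC had peaks with signals of 74.9, 37.2 and 16.2 at percentiles 81.2, 27.2 and 4.46. Both MP2_HDAC1_OE peaks thus ranked above every MP2_NTC peak of the region, and the difference of the strongest was 10.9 points.

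*KAT7* (chr17:49788681-49835026, plus strand), which encodes the HBO1 acetyltransferase, also had 1 shared region, chr17:49787846-49789122, which an end of *FAM117A* touches. Here MP2_NTC ranked higher. Its strongest peak had a signal of 112, rank 845 and percentile 96.3, and that of MP2_HDAC1_OE had a signal of 62.2, rank 6429 and percentile 74.3. The difference was -21.9 points, with 13.4% of all shared regions lower. The summits nevertheless lay 142 bp and 125 bp inside the gene, and 90.1% of the bases covered by either line were covered by both, the highest share of any member.

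The weaker *KAT7* peaks followed the same layout in both lines. The interval at the start carried another summit 344 bp inside the gene in MP2_NTC and 325 bp in MP2_HDAC1_OE, at percentiles 5.05 and 8.62. Before the start, MP2_NTC had peaks at percentiles 41.0 and 19.3 and MP2_HDAC1_OE had 1 at 25.1.

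*KAT8* (chr16:31117664-31131393), which encodes the MOF acetyltransferase of the MSL and NSL complexes, had 6 regions, and most were nearer to other genes. At its own lower-coordinate end, the lines had separate regions that abut. The MP2_NTC region, chr16:31116725-31117544, had a signal of 72.5 at rank 4678 and percentile 79.3. The MP2_HDAC1_OE region, chr16:31117557-31118611, held peaks with signals of 58.6 and 56.0, at percentiles 69.9 and 66.3. They were 12 bases apart, so both regions were counted as unique although each line had H3K27ac at this end, where an end of *BCKDK* lies as well.

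The other 4 regions of the *KAT8* window belong by distance to its neighbors. Near and in *BCKDK*, chr16:31105650-31106470 was at percentiles 70.2 in MP2_HDAC1_OE and 88.1 in MP2_NTC, and chr16:31107799-31109217 at 92.0 and 80.3 for the strongest peaks. In *PRSS36*, chr16:31141191-31142062 was at 90.9 and 70.3. Another MP2_NTC region of *PRSS36*, chr16:31142544-31143380, held peaks at percentiles 85.6 and 36.7, lay 528 bp from the nearest MP2_HDAC1_OE peak and was the strongest of the 4 regions unique to MP2_NTC.

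*BRD2* (chr6:32968594-32981505, plus strand) had the most peaks of any member, 9 in MP2_HDAC1_OE and 8 in MP2_NTC, spread over 6 regions from before the start into the gene. Its shared regions did not rank alike in the lines. The region across the start, chr6:32967991-32969105, had MP2_HDAC1_OE at percentile 66.2 with its summit at -258 bp from the start, and MP2_NTC at percentiles 53.7 and 2.98, the stronger with its summit 97 bp inside the gene.

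The next *BRD2* region, chr6:32969266-32970893, held the strongest MP2_HDAC1_OE peak of all members. Its signals there were 99.1 and 90.3, at ranks 1019 and 1648 and percentiles 95.9 and 93.4. In MP2_NTC the signals were 52.3 and 48.8, at ranks 10138 and 11511 and percentiles 55.1 and 49.0. Both MP2_HDAC1_OE peaks ranked far above both MP2_NTC peaks, and the difference of 40.9 points was exceeded by 5.67% of all shared regions. This region ends within 500 bp of the next one, which holds an MP2_NTC peak at percentile 99.9. The difference thus depends on counting them apart.

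The region after it, chr6:32970957-32971712, held the strongest MP2_NTC peak of all members. This peak had a signal of 178, rank 27 and percentile 99.9, with its summit 2635 bp inside the gene, and a second summit on the same interval had a signal of 99.6 at percentile 93.5. The MP2_HDAC1_OE interval carried summits at nearly the same places, 2675 bp and 2881 bp inside the gene, with signals of 91.9 and 66.4 at percentiles 94.0 and 78.7. Because this region lies beyond 2 kb, the strongest *BRD2* start peak was at percentile 55.1 in MP2_NTC, and it was at 99.9 when 5 kb were searched, which turned the order of the lines at *BRD2*.

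The *BRD2* region farther in, chr6:32972468-32973541, again ranked higher in MP2_NTC. It was at percentile 54.8 in MP2_HDAC1_OE and at 90.0 and 10.1 in MP2_NTC, a difference of -35.2 points for the strongest, with 5.89% of all shared regions lower. The regions unique to MP2_HDAC1_OE, chr6:32967123-32967532 before the start and chr6:32976469-32977288 inside the gene, were weak, at percentiles 29.1 and 0.771 for the first and 10.2 for the second.

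**Figure D3:**
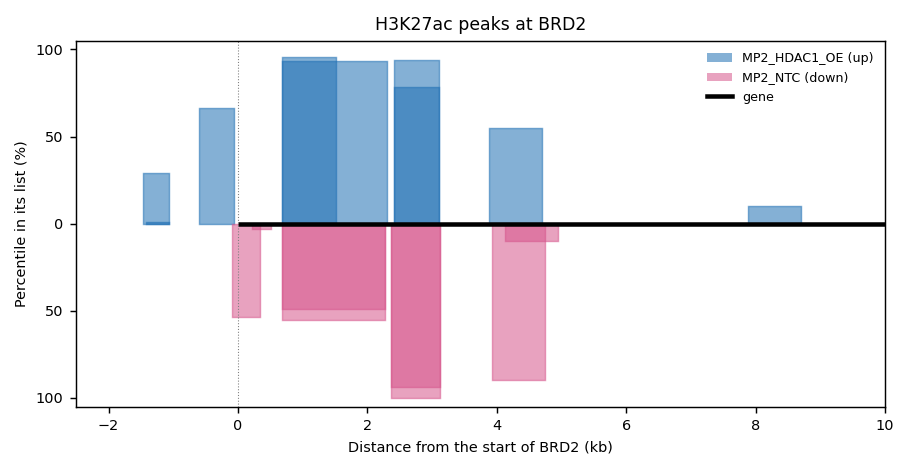
H3K27ac peaks at *BRD2*, with the distance from the gene start in kb on the x axis and the percentile within the list on the y axis, MP2_HDAC1_OE upward in blue and MP2_NTC downward in pink; darker areas are overlapping peaks. The strongest MP2_HDAC1_OE peak, at percentile 95.9, is the region before the one with the strongest MP2_NTC peak, at 99.9.

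Over the 16 shared regions of the members, the difference in percentile had a median of 3.59 points with quartiles of -16.1 and 13.0, and 10 of 16 (62.5%) were higher in MP2_HDAC1_OE. For all 9477 shared regions the median was 1.51 with quartiles of -10.4 and 15.6, and 54.7% were higher in MP2_HDAC1_OE. With regions merged at 1 bp, the members thus held regions near both extremes, with *EP300* at the low end and *KAT2A* at the high end. The place of *EP300* rests on its neighboring regions being counted apart. Summits of the strongest peaks were a median of 61.5 bp apart in the members' shared regions and 69 bp in all shared regions, and 62.5% and 59.4% were within 100 bp.

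**Figure D4:**
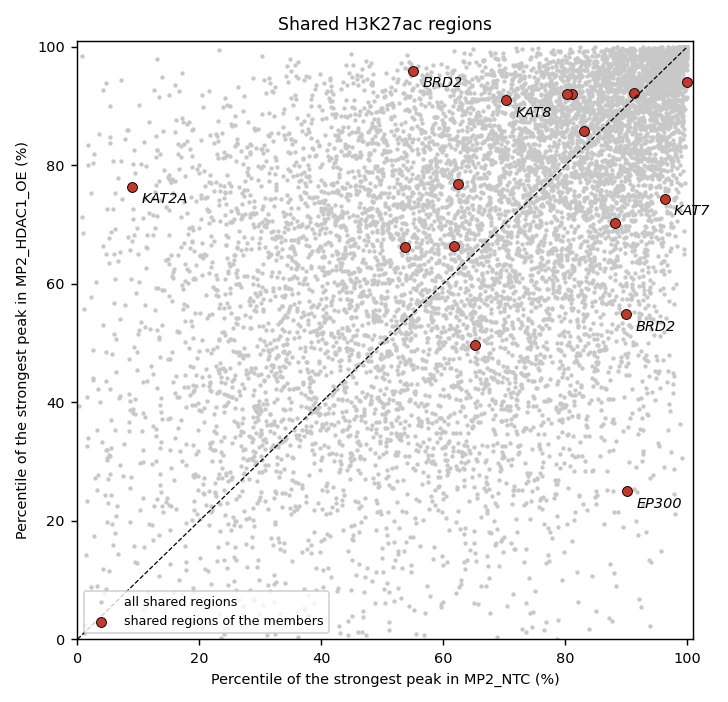
The strongest peak of each shared region, by its percentile in the MP2_NTC list on the x axis and in the MP2_HDAC1_OE list on the y axis, for all 9477 shared regions (gray) and the 16 shared regions of the members (red); the dashed line marks equal percentiles. The *KAT2A* point at 8.98 and 76.4 and the *EP300* point at 90.1 and 24.95 lie far from the line, on opposite sides.

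Some unique regions had a peak of the other line close by. Among the members, 1 of the 6 MP2_HDAC1_OE regions and 2 of the 4 MP2_NTC regions were within 500 bp of a peak of the other line, namely both *KAT8* regions at the gene end and the *EP300* region. Over all regions, 19.4% of those unique to MP2_HDAC1_OE and 21.5% of those unique to MP2_NTC were that near. Intervals listed more than once, with a summit each, were 6 of the 39 MP2_HDAC1_OE peaks (15.4%; 9.04% of the list) and 10 of the 35 MP2_NTC peaks (28.6%; 8.19% of the list).

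The partners of these enzymes and the rest of their families, 66 genes in 6 lists, were looked up at their starts in the same way. Both lines had a start peak at 51 of the 66, MP2_HDAC1_OE alone at 3, MP2_NTC alone at 5 and neither at 7. Over all protein-coding genes the shares were 36.4% for both lines, 6.27% for MP2_HDAC1_OE alone and 5.24% for MP2_NTC alone. The counts for 1 line alone were thus near the shares over all genes. Of the 51, 25 were at a higher percentile in MP2_HDAC1_OE. By comparison, 54.7% of all shared regions were, a share of regions and not of genes. The median difference over all protein-coding genes with both was 0.990 percentile points. In the NuA4/TIP60 list, the partners of KAT5, both lines had a start peak at all 15 genes. In the SAGA, ATAC and PCAF list, the partners of KAT2A and KAT2B, both lines had one at 14 of 18, and MP2_NTC alone at *TAF5L*, *TAF6L* and *ENY2*, at percentiles 80.1, 58.3 and 38.9. *YEATS2*, a reader subunit of ATAC, had none.

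The MOZ and HBO1 list, the partners of KAT6A and KAT7, had start peaks of both lines at 6 of 8 genes. *JADE3* had one in MP2_HDAC1_OE alone, at percentile 46.4, and the scaffold gene *BRD1* had none. For the MSL and NSL list, the partners of KAT8, it was 9 of 11, with *PHF20* in MP2_HDAC1_OE alone at percentile 4.80 and none at *KANSL1*. Of 11 other acetyltransferases, 6 had a start peak in both lines, *HAT1*, the cytoplasmic writer of new histone H4, in MP2_HDAC1_OE alone at percentile 50.6, and the circadian factor gene *CLOCK* in MP2_NTC alone at 49.0, while *KAT14*, *NCOA2* and *ELP3* had none. The BET gene *BRD3* had a start peak in MP2_NTC alone at percentile 66.5, and *BRDT*, the testis member of that family, had none.

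**Figure D5:**
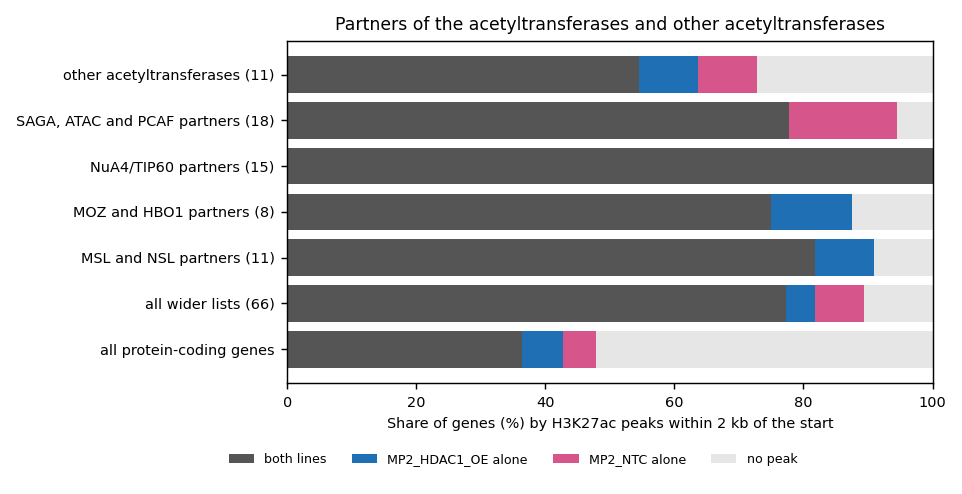
Share of genes in percent on the x axis, by whether an H3K27ac peak lay within 2 kb of the start in both lines (dark gray), MP2_HDAC1_OE alone (blue), MP2_NTC alone (pink) or neither (light gray), for the lists of partners and of other acetyltransferases with their numbers of genes, for all 66 genes looked up and for all protein-coding genes. All 15 NuA4/TIP60 partners have a peak of both lines, against 36.4% of protein-coding genes.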

How the data were processed

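ChIP-sequencing of H3K27ac covered 2 samples and 2 controls for either line. The authors called peaks by the ENCODE pipeline, and the deposited data are 1 list of reproducible (IDR) peaks per line. The submitters' processing notes name hg38, BWA 0.7.12, Picard 1.88 and SAMtools. The deposited signal (column 7) is the strength of a peak and was used as a rank within its list, since its scaling between lists is not given in the sources used here. The deposited score (column 5) is capped at 1000. The lists hold no read counts, so depth is unknown.

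Members and gene lists were chosen with earlier results of these data known. All 9 members, the neighbors nearest to their regions, and partners with a start peak in 1 line or none are named. Gene positions, gene starts and promoters came from RefSeq (GRCh38.p14). Of the 20052 protein-coding genes, 15841 had a strand, and for the rest either end stood for the start. Regions were merged at 1 bp, with windows of 20 kb and start windows of 2 kb, and shares have 95% Wilson intervals. The deposited intervals were converted to 1-based positions. Alternatives covered windows, overlap, thresholds and ranking. The merging code was tested on simulated regions that lay far apart, with 1000 of 1000 regions put in the right class. That check did not cover regions of the lines that nearly touch, such as those at *KAT8*. Tools were scipy 1.17.1, pandas 2.3.3, matplotlib 3.10.9 and numpy 2.4.6 under Python 3.11.15.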

Additional observations from a re-analysis of the deposited data

How the results depend on the processing

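The members' regions numbered 6 for MP2_HDAC1_OE alone, 4 for MP2_NTC alone and 16 shared. With the gene body alone in place of 20 kb either side they numbered 2, 1 and 10. Single peaks with an overlap of 50% of both gave 21 unique MP2_HDAC1_OE peaks and 13 unique MP2_NTC peaks. With peaks up to 500 bp apart merged, 1 region was unique to MP2_NTC. With only regions nearest to an end of the member, an alternative chosen after seeing the data, 2 were unique to MP2_NTC. The counts stayed within 1.5 times under windows of 5 kb and 50 kb, the 75% strongest peaks and equal numbers of peaks. Over non-overlapping intervals the median start percentile was 67.7 in MP2_HDAC1_OE, over 9 members, and 74.6 in MP2_NTC, over 8, and with 5 kb searched it was 86.6 in MP2_NTC. Of 51 start percentiles of single members under the alternatives, 18 moved. All those over non-overlapping intervals did, each to a lower value, and the other was that of *BRD2* in MP2_NTC with 5 kb searched. The causes were not tested. Leaving out a replicate was not run, since the peaks come pooled. No paired analysis was possible because the replicates of a line were pooled before peaks were listed. Depth is unknown, and a region absent from a list is only one not called in it.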

Other observations

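Among the 51 partner genes with a start peak in both lines, 4 were chosen for a closer description after their values were seen. The start peak of *ING4*, a reader subunit of HBO1 complexes, was at percentile 73.8 in MP2_HDAC1_OE and 17.4 in MP2_NTC. That of *VPS72*, which encodes a histone chaperone, was at 83.6 and 43.9. The other 2 ranked higher in MP2_NTC. *MEAF6*, a subunit of the MYST complexes, was at 46.2 in MP2_HDAC1_OE and 89.9 in MP2_NTC, and *HCFC1*, which encodes a host cell factor shared by several chromatin complexes, was at 38.9 and 78.5.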
